A study of Mus musculus with 4 samples.

Results

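The Rab genes were taken as every gene whose symbol in the platform annotation is Rab followed by digits, at most a letter and at most a digit. The annotation gives 132 such probe sets for 59 genes, of 18193 genes with a probe set of a single symbol. Each gene was read from its brightest probe set, that with the highest mean log2 value over the 4 arrays, so no measured difference between the fractions entered the choice. RNA was measured in midbrain of adult mice (6 to 12 weeks, both sexes) of the Slc6a3 JD1640 TRAP line. The comparison is between a pair of RNA fractions of this tissue. TRAP (Translating Ribosome Affinity Purification) RNA, replicates 2 and 4, is mRNA pulled down with GFP-tagged ribosomes. Input RNA, replicates 1 and 2, is that of the whole dissected midbrain, named unbound (total) RNA in the sample labels. All 4 arrays carry the transgene, EGFP/RPL10A placed at the translation start of Slc6a3 in a bacterial artificial chromosome, in a line founded on FVB and bred to C57BL6/j, and every array is a pool of 5 mice. Cycloheximide was present at dissection in both fractions, and no animals without the transgene were compared here.

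Rab proteins are small GTPases that mark membranes and direct the budding, movement, tethering and fusion of vesicles. Each is lipid-modified by Rab geranylgeranyl transferase, switched on by a guanine nucleotide exchange factor (GEF), switched off by a GTPase-activating protein (GAP) and taken off the membrane by a GDP dissociation inhibitor (GDI), and in its active state it recruits effectors. In dopamine neurons Rab proteins serve the release of transmitter, the long axon and the endosomes and lysosomes, and several are phosphorylated by LRRK2, the kinase encoded by a Parkinson's disease gene.

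The values are GCRMA log2 values per probe set, and levels are given as units, 2 raised to that value, with no absolute scale. The number of arrays limits their precision. Values of different probe sets are not comparable as levels. TRAP was compared with input by limma over 45037 probe sets, calling adjusted p-values (Benjamini-Hochberg) under 0.05, and calls were counted over genes whose mean log2 value over the 4 arrays corresponds to 50 units or more. All 7 dopamine neuron markers at this level were higher in TRAP (median log2 fold change 3.66), and all 8 of the list passed when Pitx3, listed at 4.6 units in input, is counted. Of the 8 pan-neuronal markers, 5 had positive and 3 negative values (median 0.74), and 0 passed. The 3 GABAergic markers measured and the 1 glutamatergic marker at this level had negative values (medians -1.26 and -1.49), of which 1 GABAergic marker passed. All 8 astrocyte and all 7 oligodendrocyte markers had negative values (medians -1.69 and -1.30), of which 1 astrocyte marker passed. Summed over their list, the oligodendrocyte markers reached 73376 units in TRAP replicate 2, 33266 in TRAP replicate 4 and 83681 and 93143 in the input arrays. For the Gapdh transcript the 3′ probe set exceeded the 5′ one by 4.96 and 3.52 (log2) in TRAP replicates 2 and 4 and by 6.81 and 6.39 in input, a measure of RNA integrity whose part in the results was not tested.

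Of the 59 Rab genes, 46 had a mean of 50 units or more. Of these, 13 (28.3%) were higher in TRAP, beside 17.7% of all 9507 genes at this level, and 0 were lower, beside 5.34% (limma, 17 and 0 at an unadjusted p under 0.05). The split was 10 higher and 3 lower after centring each array on its bright probe sets and 5 higher and 1 lower after quantile normalization. The share of all genes called under these 2 settings is not given, so these counts cannot be set beside the 17.7% and 5.34%. Over all 59 genes whatever their level, 15 were higher and 4 lower, beside 19.8% and 19.0% of all genes. On 33 of the 46 (71.7%) both TRAP arrays lay above both input arrays, beside 52.4% of all genes at this level, and on 3 (6.52%) both lay below, beside 22.0%. The median log2 fold change of the 46 was 0.77 and that of all genes at this level 0.44, a difference of 0.33 on the deposited values, 0.33 after centring, 0.30 after quantile normalization and 0.14 without input replicate 2. The median of all genes itself was 0.03 after centring and 0.05 after quantile normalization. The values run from -2.06 for Rab31 to 2.38 for Rab1b. Why a transcript is higher in TRAP cannot be told from these samples. More cells holding it and a cell holding more of it, for example, cannot be told apart.

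**Figure D1:**
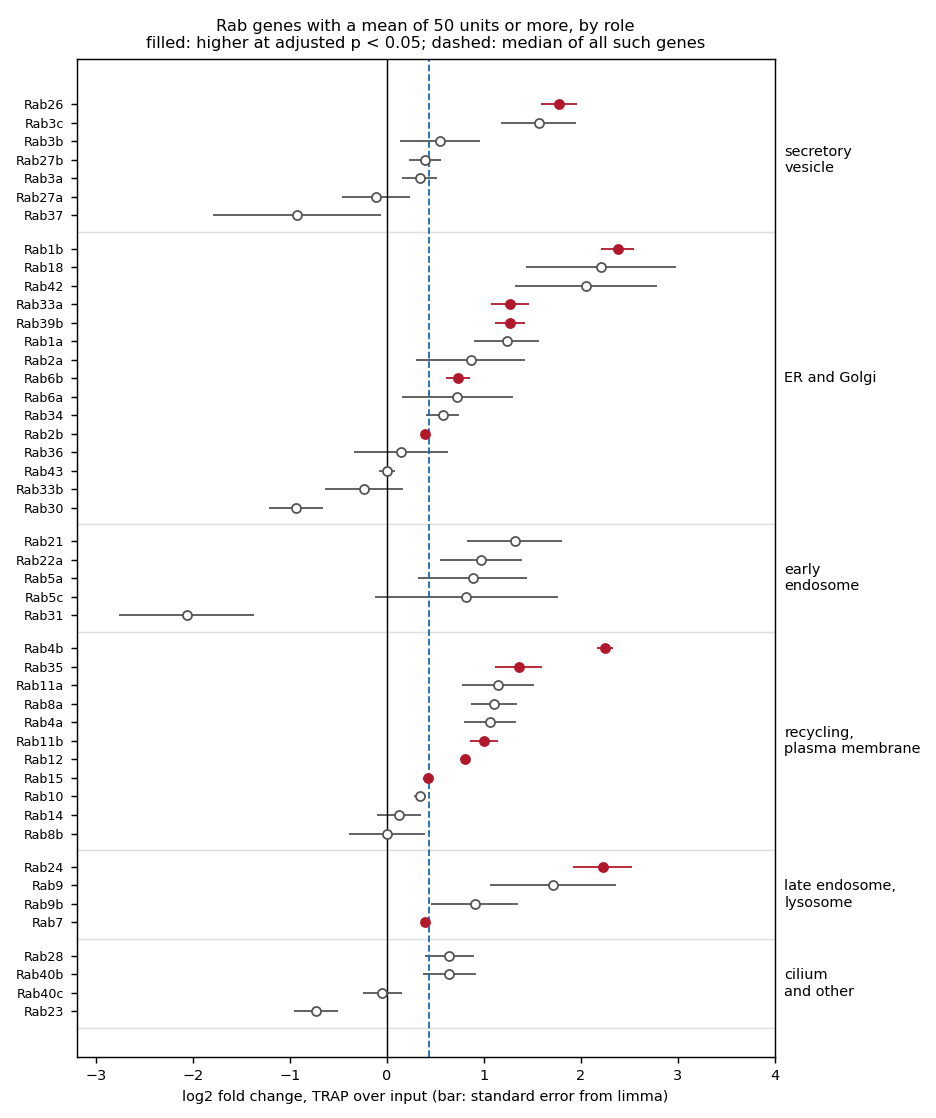
Log2 fold change of TRAP over input (x axis, with the standard error from limma) for the 46 Rab genes with a mean of 50 units or more, grouped by the membrane step they serve. Filled points are the 13 genes higher in TRAP at an adjusted p under 0.05, open points did not pass, and the dashed line is the median of all genes at this level, 0.44; most Rab genes lie to the right of 0.

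By role, 5 of 15 Rab genes of the endoplasmic reticulum (ER) and Golgi, 5 of 11 of recycling and delivery to the plasma membrane, 2 of 4 of the late endosome and lysosome and 1 of 7 of secretory vesicles (14.3%) were higher in TRAP, beside 17.7% of all genes. Of the 5 early endosome genes and the 4 of the cilium and other places, 0 passed (limma, 0 also at an unadjusted p under 0.05). The median log2 fold change was 0.73 for ER and Golgi, 1.0025 for recycling, 1.31 for late endosome and lysosome, 0.39 for secretory vesicles, 0.89 for early endosome and 0.30 for the last group. The differences between these groups were not tested.

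Of the ER and Golgi Rabs, Rab1b, which acts in transport from the ER to the Golgi, had the highest log2 fold change. It was at 325 and 369 units on the TRAP arrays and at 59.7 and 74.1 on the input arrays. This is a rise of 5.21-fold (log2 fold change 2.38, standard error (SE) 0.17, adjusted p = 0.00906 in limma). Its paralog Rab1a, serving the same step, was at 17009 and 18575 units in TRAP and at 9628 and 5922 in input. The fractions did not overlap, but the difference did not pass (log2 fold change 1.24, adjusted p = 0.0852). Rab33a, a Golgi Rab that also marks axonal vesicles of growing neurons, was at 905 and 838 units in TRAP and at 414 and 313 in input (log2 fold change 1.27, SE 0.19, adjusted p = 0.0368 in limma). Its paralog Rab33b, a Golgi Rab that binds the autophagy protein Atg16l1, showed overlapping fractions, with 3708 and 3799 units in TRAP and 5945 and 3265 in input (log2 fold change -0.23, adjusted p = 0.657 from limma).

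Rab39b, a neuronal Rab whose loss causes intellectual disability with early-onset parkinsonism, was at 1695 and 2092 units in TRAP and at 740 and 823 in input. It rose 2.41-fold (log2 fold change 1.27, SE 0.16, adjusted p = 0.0256 in limma). Rab6b, the neuronal form of the Golgi Rab6, was at 22257 and 25593 units in TRAP and at 13487 and 15261 in input (log2 fold change 0.73, SE 0.12, adjusted p = 0.0446 in limma). This call was lost after quantile normalization (0.27, adjusted p = 0.3), after centring (0.33, adjusted p = 0.105) and in a fit of only the probe sets with a mean of 50 units or more (adjusted p = 0.0863). The ubiquitous form Rab6a had a like log2 fold change of 0.73 that did not pass (adjusted p = 0.367), its input arrays lying at 7484 and 3197 units. Rab2b, of the ER-Golgi intermediate compartment, was at 2423 and 2326 units in TRAP and at 1798 and 1813 in input, a small rise of 1.31-fold (log2 fold change 0.39, adjusted p = 0.00906 from limma) that became -0.01 after centring and -0.13 after quantile normalization. The other Rab2b probe sets at 50 units or more gave larger log2 fold changes, 1.58 to 1.95, which did not pass. Rab18, of the ER and lipid droplets, and Rab42 had log2 fold changes of 2.21 and 2.06 and did not pass (adjusted p = 0.125 and 0.129), with input arrays at 564 and 180 units and at 51.5 and 21.4. Rab30, a Golgi Rab, was the only member of this group with both TRAP arrays (287 and 434 units) below both input arrays (675 and 673), and it did not pass (log2 fold change -0.93, adjusted p = 0.0962). Rab30 passed after centring (adjusted p = 0.0207 in limma), whereas another of its probe sets at this level gave 0.26 with overlapping fractions. Rab2a, Rab34, Rab36 and Rab43 had log2 fold changes of 0.87, 0.58, 0.15 and 0.00 and did not pass. Other Rab2a probe sets at 50 units or more ran from 0.08 to 1.37, and 1 of them passed (1.365, adjusted p = 0.00126 from limma).

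Among the Rabs of recycling and delivery to the plasma membrane, Rab4b, of early and recycling endosomes, gave the most stable difference of the family. It was at 1579 and 1771 units in TRAP and at 342 and 360 in input. The rise was 4.77-fold (log2 fold change 2.25, SE 0.08, adjusted p = 0.00262 in limma), and Rab4b was the only one of the 13 to pass under each of 12 alternative settings, with adjusted p up to 0.0379. Its paralog Rab4a was at 2942 and 2348 units in TRAP and at 1067 and 1482 in input (log2 fold change 1.06, adjusted p = 0.0852 in limma). Another Rab4a probe set was higher in TRAP (1.60, adjusted p = 0.0382 in limma), and Rab4a also passed when its probe sets were averaged. Rab35, which acts in fast recycling and cytokinesis, was at 338 and 342 units in TRAP and at 159 and 110 in input, a rise of 2.57-fold (log2 fold change 1.36, SE 0.24, adjusted p = 0.0484 in limma). Rab11b, the form of the recycling endosome Rab that is abundant in brain, was at 2458 and 2412 units in TRAP and at 1348 and 1096 in input (log2 fold change 1.0025, SE 0.14, adjusted p = 0.0314 in limma). Another of its probe sets was lower in TRAP (-0.67, adjusted p = 0.0423 in limma). The average over its probe sets, which includes a dim one under 50 units on all arrays, was -0.13. Rab11a was close in size and did not pass (log2 fold change 1.15, adjusted p = 0.112), its input arrays lying at 3831 and 2206 units.

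Rab12, which directs recycling endosome cargo to lysosomes, was at 563 and 598 units in TRAP and at 341 and 324 in input (log2 fold change 0.80, SE 0.05, adjusted p = 0.00774 in limma). Rab15, a neuronal Rab of early and recycling endosomes, was at 2351 and 2487 units in TRAP and at 1848 and 1748 in input. Its rise of 1.35-fold (log2 fold change 0.43, adjusted p = 0.0255 from limma) lay next to the median of all genes and turned to -0.10 after quantile normalization (adjusted p = 0.0106). The other members of this group did not pass. Rab8a, a Rab of exocytosis and the cilium, was at 300 and 330 units in TRAP and at 123 and 173 in input (log2 fold change 1.11, adjusted p = 0.0657), while its paralog Rab8b gave 1255 and 1226 units in TRAP between input values of 1660 and 926 (log2 fold change 0.00, adjusted p = 1). Rab10, of dendritic and axonal membrane delivery, had 0.34 (adjusted p = 0.0511) and Rab14, between Golgi and endosomes, 0.12 (adjusted p = 0.675). The other Rab14 probe sets at the level used for counting calls gave larger log2 fold changes, 0.76 to 1.49, which did not pass. Dimmer Rab14 probe sets, under that level, were lower in TRAP, and the average over all its probe sets was -0.30. For Rab10 the other probe sets ran from 0.22 to 1.27 and did not pass.

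In the late endosome and lysosome group, Rab24, a Rab linked to autophagy, was at 945 and 1352 units in TRAP and at 279 and 209 in input. It rose 4.68-fold (log2 fold change 2.23, SE 0.31, adjusted p = 0.0311 in limma). Rab7, the main Rab of late endosomes and lysosomes, was at 10345 and 10882 units in TRAP and at 7910 and 8235 in input, a rise of 1.31-fold (log2 fold change 0.39, SE 0.04, adjusted p = 0.0205 in limma) that became -0.01 after centring and -0.13 after quantile normalization. The other Rab7 probe set gave a log2 fold change of 1.31 and did not pass (adjusted p = 0.112 in limma). Rab9, which returns mannose 6-phosphate receptors to the trans-Golgi network, was at 5946 and 4622 units in TRAP and at 2551 and 1004 in input. The fractions did not overlap, yet with the spread of the input arrays the difference did not pass (log2 fold change 1.71, adjusted p = 0.142). Its paralog Rab9b gave 0.90 (adjusted p = 0.208), with 635 and 1231 units in TRAP.

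Of the secretory vesicle Rabs, the only one to pass was Rab26, which is found on synaptic and secretory vesicles. It was at 195 and 241 units in TRAP and at 57.7 and 69.4 in input, a rise of 3.43-fold (log2 fold change 1.78, SE 0.19, adjusted p = 0.0191 in limma). The Rab3 proteins sit on synaptic vesicles and control exocytosis through effectors such as RIM and rabphilin. Rab3c was at 8438 and 14731 units in TRAP and at 3488 and 4071 in input. Its log2 fold change of 1.57 did not pass (adjusted p = 0.0838), and it passed in a fit of only the probe sets with a mean of 50 units or more (0.0371) and after centring (0.0406). Rab3a, the main Rab3 of brain, was at 7992 and 6117 units in TRAP and at 5401 and 5660 in input (log2 fold change 0.34, adjusted p = 0.235), Rab3b overlapped between the fractions (0.55, adjusted p = 0.352) and Rab3d lay under 50 units on every array. Rab27b, a Rab of dense-core and secretory granules, gave 0.39 (adjusted p = 0.168) and Rab27a -0.11 (adjusted p = 0.806), with overlapping fractions.

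**Figure D2:**
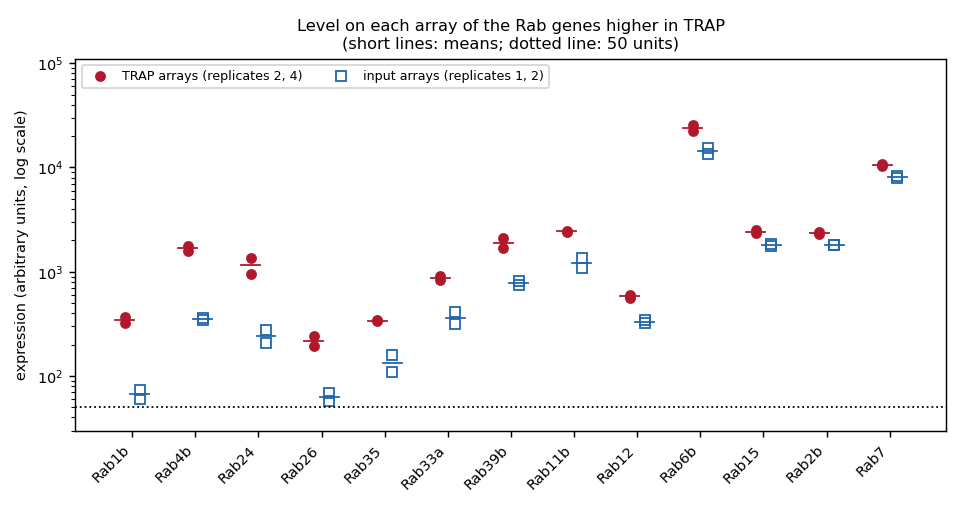
Levels of the 13 Rab genes higher in TRAP, in arbitrary expression units on a log axis, ordered by log2 fold change. Circles are the TRAP arrays, open squares the input arrays, short lines the means of a fraction and the dotted line 50 units; for every gene both TRAP arrays lie above both input arrays, as for Rab4b with 1579 and 1771 against 342 and 360 units.

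With 1 array fewer, most of the 13 calls were lost whichever array was left out, and the fit then had 1 residual degree of freedom in place of 2. Without TRAP replicate 2 or TRAP replicate 4, 2 of the 13 passed (Rab2b and Rab4b), without input replicate 1, 5 and without input replicate 2, 4. Of the 13 genes, 1 passed with each array left out (Rab4b), 4 with 2 of the 4 arrays left out in turn (Rab11b, Rab1b, Rab2b and Rab35), 1 with 1 (Rab33a) and 7 with 0 (Rab12, Rab15, Rab24, Rab26, Rab39b, Rab6b and Rab7), with adjusted p up to 0.209 from limma. After quantile normalization the calls of Rab11b, Rab33a, Rab35, Rab39b and Rab6b were lost, with adjusted p of 0.0831, 0.0653, 0.0701, 0.0523 and 0.3.

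Of the 5 early endosome Rabs at 50 units or more, Rab5a, which drives fusion of early endosomes, was at 9530 and 9748 units in TRAP and at 7927 and 3428 in input (log2 fold change 0.89, adjusted p = 0.29). Rab21, which acts in integrin traffic, gave 1.32 (adjusted p = 0.138) and Rab22a 0.97 (adjusted p = 0.174), both with TRAP above input on every array. Rab5c overlapped between the fractions (0.82, adjusted p = 0.511). Rab31, a close relative of Rab22a, had the lowest log2 fold change of the 46, -2.06. The TRAP pools gave 963 (replicate 2) and 352 (replicate 4) units and the input pools 2136 and 2774. The fractions did not overlap and the difference did not pass (SE 0.70, adjusted p = 0.119 in limma), whereas it passed after centring (0.0317) and in a fit of only the probe sets with a mean of 50 units or more (0.0494). Among the remaining Rabs, Rab23, an inhibitor of hedgehog signalling, had both TRAP arrays (127 and 91.8 units) below both input arrays (185 and 174; log2 fold change -0.73, adjusted p = 0.101). It passed after centring (adjusted p = 0.0217). Rab28, a ciliary Rab, and Rab40b gave 0.65 and 0.64, and Rab40c gave -0.05, none of which passed.

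LRRK2 phosphorylates 14 of the 59 Rabs, of which 11 had a mean of 50 units or more. Of these 11, 2 were higher in TRAP (18.2%), Rab12 and Rab35, 0 were lower, and the median log2 fold change was 0.80, beside 17.7%, 5.34% and 0.44 for all genes. The share of higher genes lies at that of all genes. Rab29, which recruits LRRK2 to membranes, was under 50 units on all arrays (40.1 and 26 in TRAP, 17 and 11 in input), as were Rab5b and Rab3d. Lrrk2 itself was under 50 units on all arrays, at 8.18 and 16.6 in TRAP and at 10.7 and 6.66 in input.

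Paralogs were compared by the brightest probe set of each. Within families whose members all had a mean of 50 units or more, the log2 fold changes lay furthest apart for Rab22a and Rab31 (a difference of 3.04), Rab33a and Rab33b (1.505), Rab4b and Rab4a (1.19), Rab1b and Rab1a (1.15) and Rab8a and Rab8b (1.11). They lay closest for Rab6a and Rab6b (0.01) and Rab11a and Rab11b (0.15). This order depends on the probe set. Another probe set of Rab4a gave 1.60. Averaged over probe sets, Rab6a and Rab6b were at 0.77 and 1.82, Rab11a and Rab11b at 1.9996 and -0.13, and Rab22a and Rab31 at -0.68 and -1.34. The averages of Rab11b and Rab31 include a probe set with a mean under 50 units. The differences between paralogs were not tested. Near-identical transcripts may also share probes, and for 5 of the 59 genes the chosen probe set is of a kind (suffix _s_at or _x_at) that can detect more than one transcript.

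Other probe sets of the same gene often gave another size. Of the 22 Rab genes with more than 1 probe set at a mean of 50 units or more, the brightest gave a lower log2 fold change than the median of the others in 16 (72.7%), beside 62.3% of 3396 such genes overall. For Rab6b the brightest gave 0.73, whereas the other 3 gave 1.84 to 2.46, and 1 of them passed. For Rab3a the brightest gave 0.34 and the other 1.93. The latter probe set was at 6351 and 7262 units in TRAP and at 2122 and 1488 in input, and it passed (adjusted p = 0.0283 from limma). For Rab3c the others ran from 1.14 to 4.05, and the highest passed (674 and 1318 units in TRAP, 62.9 and 51.8 in input, adjusted p = 0.0225 from limma). For Rab11a the other probe set gave 2.85 (1768 and 2562 units in TRAP, 284 and 307 in input) and passed, with an adjusted p of 0.014 from limma.

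Probe sets of 5 genes pointed both ways. For Rab11b the second probe set was lower in TRAP (130 and 133 units against 194 and 228, log2 fold change -0.67, adjusted p = 0.0423 from limma), opposite to the brightest. For Rab22a the other 3 gave -1.90 to -0.35 and 2 of them were lower in TRAP, and for Rab39b the other gave -0.50 with overlapping fractions. A dimmer probe set of Rab12, listed at 4.62 units on both TRAP arrays and at 108 on both input arrays, pointed opposite to the brightest, with a mean under 50 units and no fold given. Of the 6 called genes with another probe set at this level, 2 had one called the same way (Rab24 and Rab6b). Over all 84 Rab probe sets with a mean of 50 units or more, 20 were higher and 3 lower in TRAP. The share called over all 15731 probe sets at this level is not given, so these counts have no background beside them.

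**Figure D3:**
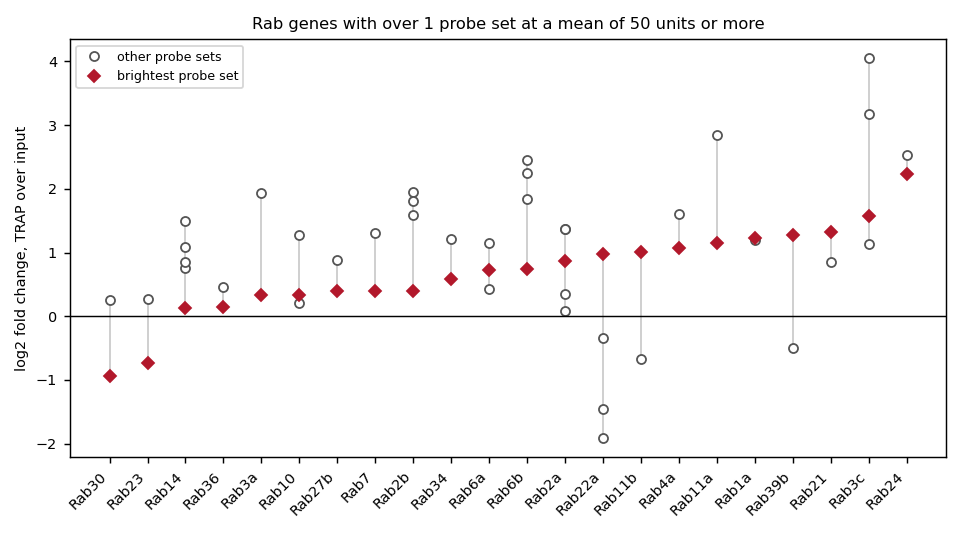
TRAP against input, as a log2 fold change, of each probe set with a mean of 50 units or more, for the 22 Rab genes with more than 1. Diamonds are the brightest probe set of a gene, open circles the others and grey lines join them; the brightest lies lowest for Rab6b and Rab3a, and probe sets of Rab22a, Rab11b, Rab39b, Rab23 and Rab30 lie on both sides of 0.

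The pools of a fraction differed by a median of 0.19 log2 units in TRAP and 0.39 in input over the 46 Rab genes, beside 0.28 and 0.42 over all genes at this level. More than 2-fold differences between the input pools were found for 8 of the 46 (17.4%, beside 13.3% of all genes). Of these, Rab18, Rab9, Rab42, Rab6a, Rab2a, Rab5a and Rab21 were higher on input replicate 1, and Rab5c was higher on input replicate 2. Of these 8, 0 passed in the comparison of all 4 arrays (limma, also 0 at an unadjusted p under 0.05). The difference between the input pools is part of the error of this fit, so this outcome was largely fixed by the choice of genes. Leaving out an input array takes that difference out of the error, which then comes mainly from the TRAP pools. The TRAP pools differed by only -0.006 for Rab2a, 0.0097 for Rab6a, -0.0176 for Rab21 and -0.0325 for Rab5a (log2). A pass of such a gene with 1 input array left was thus also largely fixed, and these passes are not listed.

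Between the TRAP pools, 3 Rab genes (6.52%, beside 6.37% of all genes) differed by more than 2-fold, all higher on TRAP replicate 2. Rab37, a secretory granule Rab, was at 217 and 59.7 units, Rab31 at 963 and 352 and Rab5c at 184 and 69.4, differences of 1.86, 1.45 and 1.41 log2 units. The astrocyte markers summed to 25330 and 14474 units on these arrays, against 41988 and 48787 on the input arrays, and the microglia markers to 1064 and 490, against 1616 and 3279, with 4 of 8 microglia markers under 50 units on every array and 0 of 8 astrocyte markers. TRAP replicate 2 exceeded TRAP replicate 4 by a median of 1.46 (log2) over the 7 oligodendrocyte markers and of 0.81 over the 8 astrocyte markers. The dopamine neuron markers summed to 131802 and 167932 units. The part of other cells in the values of these 3 genes was not tested. Without TRAP replicate 2 the log2 fold change of Rab31 was -2.79 and without TRAP replicate 4 it was -1.34, and neither passed. That of Rab37 went from -0.93 to 0.00 without TRAP replicate 4 and to -1.86 without TRAP replicate 2.

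**Figure D4:**
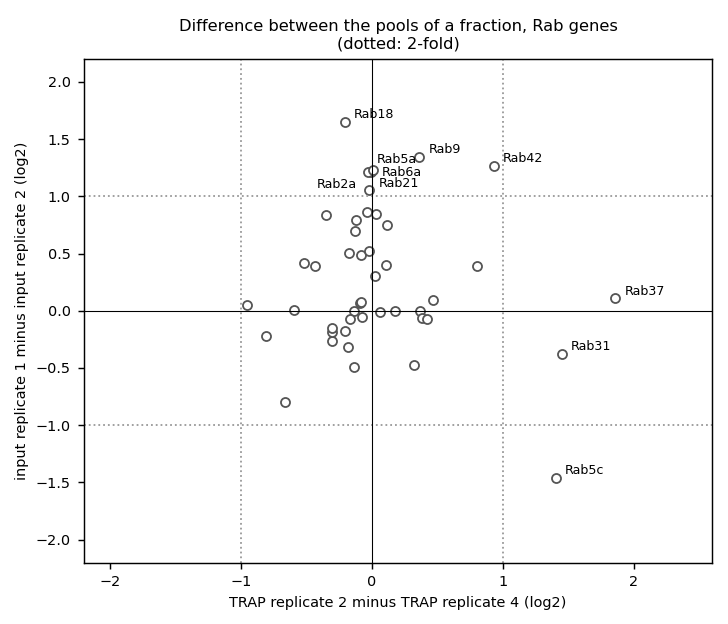
Difference on the log2 scale between the TRAP pools (x axis, replicate 2 minus replicate 4) and between the input pools (y axis, replicate 1 minus replicate 2) for the 46 Rab genes with a mean of 50 units or more; dotted lines mark 2-fold. Named are the genes past 2-fold on either axis, with Rab37, Rab31 and Rab5c far to the right (1.86, 1.45 and 1.41).

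The remaining 13 Rab genes had a mean under 50 units, and 11 of them were under 50 on every array. The exceptions were Rab39, at 32.4 and 69.5 units in TRAP and at 13.4 and 11.4 in input, and Rab13, a Rab of cell junctions, at 75.1 and 47.2 in TRAP and at 55.7 and 20.6 in input. The dim genes include Rab20, Rab25 and Rab17, of epithelial or phagocytic cells, and Rab32 and Rab38, of lysosome-related organelles such as melanosomes. Rab32, variants of which are linked to Parkinson's disease, was listed at 18.7 units on both TRAP arrays and at 7.76 and 7.74 on the input arrays. Limma called 6 of the dim genes, Rab25 and Rab32 higher and Rab5b, Rab17, Rab19 and Rab38 lower, and the TRAP arrays of each were listed at nearly the same value. All 6 were under 50 units on all arrays, so no fold is given. Rab5b, an early endosome Rab, has only dim probe sets here, the brighter at 5.14 units on both TRAP arrays and 28.6 on both input arrays.

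The other genes of the Rab cycle were read from a list of 116 symbols, of which 108 were measured and 88 had a mean of 50 units or more. Of the 88, 17 (19.3%) were higher in TRAP and 3 (3.41%) lower, with a median log2 fold change of 0.49, beside 17.7%, 5.34% and 0.44 for all genes. The split turned to 13 higher and 15 lower after centring and was 8 higher and 4 lower after quantile normalization. For these settings, too, no share of all genes is given beside the counts. Of the 7 genes of prenylation, GDI and related chaperones, 3 were higher (42.9%, beside 17.7% of all genes), with a median of 1.76. Rabac1, the prenylated Rab acceptor, was at 447 and 561 units in TRAP and at 87.8 and 61 in input, a rise of 6.84-fold (log2 fold change 2.77, SE 0.29, adjusted p = 0.0185 in limma). Rabif, a chaperone of nucleotide-free Rabs, was at 940 and 1096 units in TRAP and at 293 and 236 in input (log2 fold change 1.95, adjusted p = 0.0146). Rabggta, the alpha subunit of Rab geranylgeranyl transferase, was at 126 and 148 units in TRAP and at 45.8 on both input arrays (log2 fold change 1.58, adjusted p = 0.00867 in limma). Its input values are identical and under 50 units. Rabggta thus reached this level, and the 3 of 7, only through TRAP, and its input arrays gave the fit no spread. The beta subunit Rabggtb did not pass (2.05, adjusted p = 0.162), nor did Gdi2, a GDI (0.27, adjusted p = 0.129, and -0.13 after centring).

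Of 24 GEFs, 4 were higher (16.7%) and 2 lower (8.33%), with a median of 0.19, beside 17.7% and 5.34% of all genes. Rab3ip, the Rab8 exchange factor Rabin8, was at 610 and 676 units in TRAP and at 237 and 227 in input (log2 fold change 1.47, adjusted p = 0.00476 from limma), beside the log2 fold change of 1.11 of Rab8a. Dennd6a (1.81), Dennd4a (0.86) and Dennd5a (0.52, and -0.03 after quantile normalization) also rose. Ric1, of the Rab6 exchange complex, fell, with 134 and 113 units in TRAP and 335 and 445 in input (log2 fold change -1.65, adjusted p = 0.0293 from limma), as did Dennd1b, an exchange factor of Rab35 (-0.95, adjusted p = 0.0408). Of 26 GAPs, 5 were higher (19.2%, beside 17.7% of all genes) and 0 lower (limma, 8 and 0 at an unadjusted p under 0.05), with a median of 0.39, among them Sgsm1 (1.93), Tbc1d22a (1.52), Tbc1d16 (1.46) and Evi5 (0.76). After quantile normalization the calls of Dennd4a, Sgsm1, Tbc1d16 and Evi5 were lost (adjusted p = 0.0972, 0.0747, 0.1 and 0.28 in limma), and that of Evi5 also after centring (0.0683).

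Of 31 effectors and related enzymes, 5 were higher (16.1%) and 1 lower (3.23%), with a median of 0.54, which is near the 17.7% and 5.34% of all genes. Myrip, which links Rab27a to myosins on secretory granules, was at 2650 and 3061 units in TRAP and at 1067 and 865 in input (log2 fold change 1.57, adjusted p = 0.0202 from limma). Ppm1h, the phosphatase that removes the LRRK2 phosphorylation from Rabs, was at 4687 and 5751 units in TRAP and at 2038 and 2037 in input (log2 fold change 1.35, adjusted p = 0.0177 from limma). Rilp, an effector of Rab7, and Rbsn, an effector of Rab4 and Rab5, rose by 1.02 and 0.71, and both calls were lost after quantile normalization (adjusted p = 0.0808 and 0.0969 in limma) and after centring (0.0551 and 0.0631), where Rbsn was at 0.25 and 0.30. Fyco1, a Rab7 effector that links vesicles to kinesin, fell (259 and 177 units in TRAP, 632 and 787 in input, log2 fold change -1.72, adjusted p = 0.0446 from limma). The Rab3 effectors did not pass. Rims1 gave 0.98 (adjusted p = 0.0935), Rims2 -0.87 (0.19) and Rph3a, rabphilin, 0.35 (0.417, and -0.06 after centring). Of the 18 named genes that passed, 1 (Dennd5a) passed with each array left out, and 9 passed with 0 of them, with adjusted p up to 0.211 from limma.

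**Figure D5:**
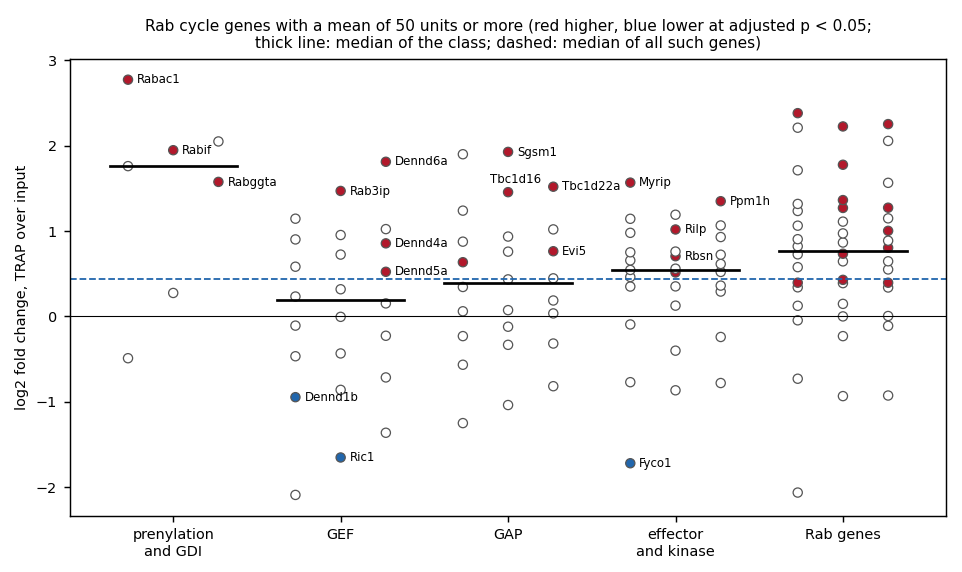
TRAP against input, as a log2 fold change, of the Rab cycle genes with a mean of 50 units or more, by class, beside the 46 Rab genes. Red points were higher and blue points lower in TRAP at an adjusted p under 0.05, thick lines are class medians and the dashed line the median of all genes, 0.44; the medians run from 0.19 for GEFs to 1.76 for prenylation and GDI, with 0.77 for the Rab genes.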

How the data were processed

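RNA of 4 samples (up to 10 ng each) was carried through 2 rounds of amplification to Affymetrix 430 2.0 arrays. The authors processed the arrays in R with GCRMA, whose version is not given in the sources used here. The paper reports that input was taken in parallel from each replicate, so TRAP replicate 2 and input replicate 2 may stem from the same mice. The fit treated all 4 arrays as independent. Each deposited value is a log2 expression value of 1 probe set on 1 array. After 64 control probe sets were left out, limma 3.58.1 (R 4.3.3) fitted 1 coefficient for the fraction, with a 2-sided test and Benjamini-Hochberg adjustment over all 45037 probe sets. The variance prior had 0.317 degrees of freedom beside 2 residual ones. The fit was tested on simulated data. Genes were named by the platform annotation, and all 59 Rab genes matched RefSeq by gene identifier.

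A mean over all arrays was used as the filter at 50 units, because a filter on the brighter fraction selects for differences. On 15551 probe sets, 4 of them brightest probe sets of Rab genes, the values of both fractions are identical within the fraction, and p-values there are not informative. These probe sets stayed in the adjustment over all 45037, so the adjusted p-values and calls of brighter genes rest in part on them. In the fit of only the probe sets with a mean of 50 units or more, 8 of the 13 Rab calls were kept. Those of Rab7, Rab2b, Rab15, Rab6b and Rab12 were lost (adjusted p = 0.25, 0.248, 0.221, 0.0863 and 0.0638 in limma). The variance prior of that fit also differs. The Rab genes, their roles, the list of Rab cycle genes, the naming rule and the alternatives were chosen with earlier results of these data known. Named are Rab genes that passed, the 3 brightest of each role, paralogs, LRRK2 substrates, genes linked to Parkinson's disease, and up to 4 genes a direction of each Rab cycle class that passed, with Lrrk2, GDIs, RIMs and rabphilin. Rabggtb and the remaining Rab genes, such as Rab18, Rab23, Rab30, Rab37 and Rab42, were named after their values were seen. P-values weigh the difference against the spread between 2 pools.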

Additional observations from a re-analysis of the deposited data

How the results depend on the processing

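On the deposited values 13 Rab genes were higher and 0 lower in TRAP, 17 and 3 genes of the Rab cycle were higher and lower, and the median of the Rab genes was 0.77. Given in the same order, quantile normalization gave 5 and 1, 8 and 4, and 0.35; centring on bright probe sets 10 and 3, 13 and 15, and 0.36; a fit of only the probe sets with a mean of 50 units or more 10 and 1, 14 and 2, and 0.77; values under 50 units raised to 50 gave 1 and 0, 2 and 0, and 0.73; averaging a gene's probe sets 16 and 2, 14 and 3, and 0.89; a filter at 100 units 13 and 0, 15 and 3, and 0.73; no filter 15 and 4, 21 and 7, and 0.65. An intensity trend gave 15 and 0 Rab genes and 24 and 3 Rab cycle genes. In the fit with values raised to 50, 59.5% of the probe sets have no spread, so its calls are not reliable. Of the alternatives in this paragraph, only that with no filter has a share of all genes, given above. The other counts have no such share beside them. A threshold of 0.1 gave 19 and 1 Rab genes and 30 and 5 Rab cycle genes, and 0.01 gave 4 and 0, and 3 and 0. With 1 array left out, Rab genes ran from 5 to 13 higher and 0 to 3 lower, Rab cycle genes from 7 to 10 higher and 2 to 3 lower, and the median from 0.55 to 0.84; the lone array of a fraction is then assumed to vary like the other fraction.

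Signs turned for the following genes, of which Rab7, Rab15, Rab2b, Rab11b, Rab12 and Dennd5a had passed. After quantile normalization the log2 fold changes were -0.13 for Rab7, -0.10 for Rab15, -0.34 for Rab14, -0.24 for Rab43, -0.48 for Rab8b, -0.13 for Rab36, -0.13 for Rab27b, -0.13 for Rab2b, -0.17 for Rab10, -0.23 for Rab3a, -0.034 for Dennd5a, -0.20 for Gdi2 and -0.18 for Rph3a. After centring they were -0.0147 for Rab7, -0.28 for Rab14, -0.40 for Rab43, -0.41 for Rab8b, -0.26 for Rab36, -0.0197 for Rab27b, -0.0144 for Rab2b, -0.0685 for Rab10, -0.0706 for Rab3a, -0.13 for Gdi2 and -0.0575 for Rph3a. Averaging probe sets gave -0.30 for Rab14, -0.13 for Rab11b, -0.34 for Rab43, -0.0013 for Rab8b, -1.87 for Rab12, where 1 probe set is listed at 4.62 units in TRAP, and -0.68 for Rab22a. Leaving out arrays gave -0.0834 to 0.0925 for Rab43, -0.42 to 0.42 for Rab8b, -0.26 to 0.17 for Rab40c, -1.86 to 0.0033 for Rab37, -0.25 to 0.55 for Rab36, -0.66 to 0.20 for Rab33b, -0.48 to 0.26 for Rab27a and -0.12 to 0.37 for Rab14. The causes were not tested.

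No paired analysis was possible because the fractions share only replicate number 2.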
